A study of Mus musculus with 12 samples.

Results

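Galectins are small proteins that bind beta-galactose-containing sugars on glycoproteins and glycolipids. The 5 genes described here, Lgals1, Lgals3, Lgals4, Lgals8 and Lgals9, encode galectin-1, galectin-3, galectin-4, galectin-8 and galectin-9. They were taken from the 39756 genes of the count table by their symbols and all 5 had enough counts to be tested. RNA was sequenced from a brain hemisphere, the ischemic one in injured mice, of 12 mice with the C57BL/6J background, 4 in each of 3 groups. Sham mice underwent sham surgery and were given saline. Vehicle mice had the middle cerebral artery occluded for a time (tMCAO), so that blood flow was blocked and then restored (ischemia-reperfusion, I/R), and were given saline. LJP mice underwent tMCAO and were given Laminaria japonica polysaccharide (LJP), a sugar polymer from a brown seaweed. The study used young adult male mice and dosed them by mouth from before surgery, and after a comparison of doses it went on with the middle one. The labels tie no age, dose or sampling time to the individual libraries, and a level is an average over the hemisphere tissue that was extracted.

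Galectins are made in the cytosol and leave the cell without a signal peptide. Outside the cell they crosslink sugars on receptors. Inside it they meet the same sugars when the membrane of a lysosome or endosome breaks. In the injured brain, galectin-3 is best known from activated microglia and infiltrating macrophages, galectin-1 from astrocytes, vessels and immune cells, and galectin-9 as a ligand of the immune checkpoint receptor TIM-3. Galectin-4 is mainly known from gut epithelium, and galectin-8 is expressed in most tissues and detects damaged endosomes.

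The 5 proteins differ in their architecture. In the GENCODE transcripts of GRCm38 with the longest coding sequence, Lgals1 encodes 135 residues and holds the sugar-binding signature of the family 1 time. Lgals3 encodes 264 residues, also with 1 signature, behind a proline- and glycine-rich tail that makes proline and glycine 29.2% of the whole protein, against 12.6% in Lgals1. Lgals4 (326 residues), Lgals8 (325 residues) and Lgals9 (353 residues) hold the signature 2 times, in tandem. The coding stretches that carry it are shown because they set apart the genes with 1 sugar-binding domain from those with 2. They run from the codon of the conserved histidine to that of the conserved glutamate, 5′ to 3′ on the coding strand, and each lies within 1 exon. Capitals mark the codons of the conserved residues H, N, P, R, W and E.
Lgals1, exon 3 of 4, chr15:78929676-78929759, plus strand: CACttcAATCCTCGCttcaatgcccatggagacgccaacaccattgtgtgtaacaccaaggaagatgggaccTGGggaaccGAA
Lgals3, exon 5 of 6, chr14:47384642-47384722, plus strand: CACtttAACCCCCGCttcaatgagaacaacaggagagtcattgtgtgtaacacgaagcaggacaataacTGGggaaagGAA
Lgals4, domain 1, exon 3 of 10, chr7:28835879-28835953, plus strand: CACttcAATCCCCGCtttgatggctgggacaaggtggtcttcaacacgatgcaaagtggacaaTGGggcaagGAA
Lgals4, domain 2, exon 9 of 10, chr7:28841191-28841259, plus strand: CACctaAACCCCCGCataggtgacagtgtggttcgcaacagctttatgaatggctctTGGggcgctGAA
Lgals8, domain 1, exon 4 of 10, chr13:12454813-12454887, minus strand: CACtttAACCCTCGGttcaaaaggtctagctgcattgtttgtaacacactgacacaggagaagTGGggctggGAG
Lgals8, domain 2, exon 9 of 10, chr13:12447195-12447266, minus strand: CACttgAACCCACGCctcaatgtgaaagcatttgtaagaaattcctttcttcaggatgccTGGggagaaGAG
Lgals9, domain 1, exon 3 of 11, chr11:78973066-78973140, minus strand: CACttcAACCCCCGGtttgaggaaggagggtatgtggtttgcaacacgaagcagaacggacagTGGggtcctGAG
Lgals9, domain 2, exon 10 of 11, chr11:78965743-78965814, minus strand: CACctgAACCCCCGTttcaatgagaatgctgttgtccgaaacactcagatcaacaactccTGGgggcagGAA

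All 8 stretches begin with CAC, the codon of the histidine, and the spacing between the marked codons varies. The domain 1 stretches of Lgals4 and Lgals9 were identical at 52 of 75 positions (69.3%), and those of Lgals8 and Lgals9 at 42 of 75 (56%). Those of Lgals4 and Lgals8 were identical at 40 of 75 (53.3%). The domain 2 stretches of Lgals8 and Lgals9 were identical at 45 of 72 positions (62.5%).

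Levels are given as CPM, the reads counted on a gene scaled to the normalised library size of that mouse. Total counts lay between 17960353 and 22216315 per mouse, and a floor of 3 counts equals 0.129 to 0.173 CPM. Vehicle mouse 2 stood apart from the others. Its summed level of 12 monocyte and macrophage markers was 2286 CPM, against 447 to 587 CPM in the other Vehicle mice. The gene Spp1 alone made up 1888 CPM of the 2286 CPM, and the lowest Spp1 value of the Vehicle group was 325 CPM. Airway and lung markers summed to 9.48 to 13.7 CPM in the Sham mice, 9.67 to 12.2 CPM in the Vehicle mice and 0.818 to 1.90 CPM in the LJP mice. Choroid plexus markers summed to under 40 CPM in Sham mouse 1, Vehicle mice 1 and 2 and LJP mice 1, 2 and 4, and to 390 to 913 CPM in the remaining mice. The part of these differences in the galectin values was not tested, apart from the fits without each mouse.

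The first comparison asks how the galectins differ between the injured and the sham-operated hemisphere. All 5 rose in the Vehicle group, Lgals3 by 74.5-fold, Lgals1 by 12.1-fold, Lgals9 by 6.32-fold, Lgals4 by 2.27-fold and Lgals8 by 1.83-fold. Of the 17558 genes tested, 22.7% were higher after injury and 17.3% lower (edgeR adjusted p below 0.05). All 5 also had no overlap between the 4 Vehicle and the 4 Sham mice, which held in the higher direction for 20.7% of the genes tested. The median log2 fold change (log2FC) was 2.66 over the 5 genes and within 0.01 of 0 over all genes tested.

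Lgals3 (Gene ID 16854, chr14:47373860-47386167 of GRCm38, plus strand) encodes the chimera-type galectin-3. Its level in Sham mice 1 to 4 was 0.404, 0.654, 0.658 and 1.14 CPM, from 7 to 22 reads. In Vehicle mice 1 to 4 it was 51.9, 84.5, 33.8 and 46.4 CPM, and in LJP mice 1 to 4 it was 30.9, 17.7, 52.3 and 14.8 CPM. The lowest Vehicle value was far above the highest Sham value, while LJP mouse 3 lay within the Vehicle range and the other LJP mice lay below it. The log2FC of Vehicle over Sham was 6.22 (standard error, SE, 0.52, edgeR adjusted p = 4.65e-05), with a 95% interval from 34.3-fold to 162-fold. Because the Sham level rests on few reads, the size of this fold is less certain than its direction.

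Lgals1 (Gene ID 16852, chr15:78926725-78930465, plus strand) encodes galectin-1, the prototype member, which acts as a dimer. Sham mice 1 to 4 held 7.15, 5.50, 7.51 and 8.81 CPM of it. Vehicle mice 1 to 4 held 43.4, 161, 64.4 and 82.3 CPM, and LJP mice 1 to 4 held 58.4, 40.1, 78.6 and 34.8 CPM. Vehicle mouse 2 was the highest of all 12, and the LJP and Vehicle ranges overlapped. The log2FC of Vehicle over Sham was 3.60 (SE 0.40, edgeR adjusted p = 0.000122), and it was 3.12 without Vehicle mouse 2. The start of Lgals1 lies within Gm30368, a long noncoding RNA on the opposite strand, and the strand setting of the counting is not given in the sources used here. Gm30368 itself had 1615 to 2342 reads per mouse, with overlapping ranges in the 3 groups.

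Lgals9 (Gene ID 16859, chr11:78962979-78984924, minus strand) encodes galectin-9. The Sham values were 3.46, 3.65, 4.16 and 4.66 CPM in mice 1 to 4. The Vehicle values were 18.5, 45.4, 16.5 and 20.4 CPM, and the LJP values were 23.2, 8.74, 18.8 and 10.9 CPM. Vehicle mouse 2 again lay well above the other 3 mice of its group, and LJP mice 1 and 3 lay above LJP mice 2 and 4. The log2FC of Vehicle over Sham was 2.66 (SE 0.38, edgeR adjusted p = 0.000424), and it was 2.20 without Vehicle mouse 2.

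Lgals8 (Gene ID 56048, chr13:12439402-12464977, minus strand) encodes galectin-8. It was measured at 19.1, 19.0, 17.5 and 16.5 CPM in Sham mice 1 to 4. It was measured at 33.0, 47.0, 23.4 and 28.3 CPM in Vehicle mice 1 to 4 and at 22.8, 24.3, 27.5 and 22.7 CPM in LJP mice 1 to 4. The Sham and the LJP mice lay close together within their groups, and the Vehicle mice spread over a range that covered all but 2 of the LJP values. The log2FC of Vehicle over Sham was 0.87 (SE 0.17, edgeR adjusted p = 0.00264).

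Lgals4 (Gene ID 16855, chr7:28833122-28841710, plus strand) encodes galectin-4 and had the fewest reads of the 5 outside the Sham group. Sham mice 1 to 4 had 1.21, 1.31, 0.822 and 1.14 CPM, from 15 to 24 reads. Vehicle mice 1 to 4 had 2.41, 4.47, 1.56 and 1.72 CPM, and LJP mice 1 to 4 had 2.00, 2.20, 2.07 and 1.95 CPM. The LJP mice differed little from each other and lay within the Vehicle range. The log2FC of Vehicle over Sham was 1.19 (SE 0.32, edgeR adjusted p = 0.0120). Without Vehicle mouse 2 it was 0.76 (edgeR adjusted p = 0.0306). Of 8 gut epithelium markers, Cdx1 and Cdx2 had no reads in any mouse, and the 8 summed to 3.81 to 6.84 CPM over the 12 mice with overlapping ranges in the 3 groups. Of the 2 with enough counts to be tested, Vil1, which encodes the microvillus protein villin, rose in the Vehicle group (log2FC 0.96, edgeR adjusted p = 0.0264), and the keratin gene Krt20 had a log2FC of -0.70 (adjusted p = 0.123). Their part in the Lgals4 values was not tested.

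**Figure D1:**
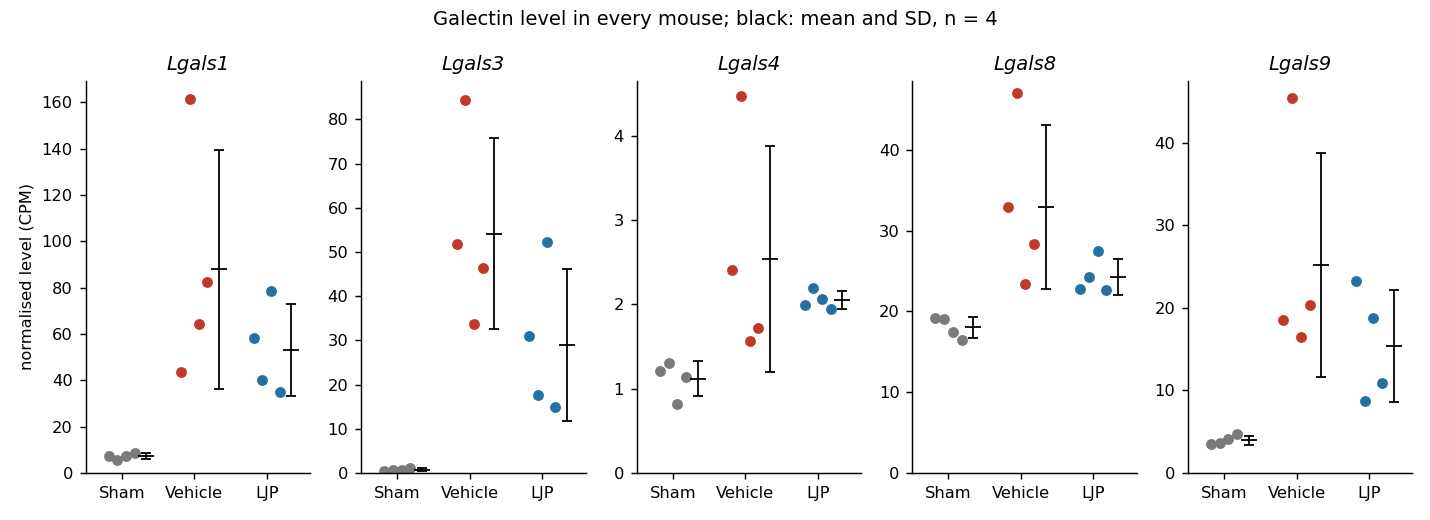
Normalised level in CPM (vertical axis, linear and starting at 0, with its own scale for each gene) of the 5 galectins in every Sham, Vehicle and LJP mouse, in order of mouse number from left to right, with the mean and SD of 4 mice in black. All Vehicle mice sit above all Sham mice for each gene, and Vehicle mouse 2 is the highest Vehicle mouse in each panel.

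In bulk tissue, more cells of a type and more RNA per cell cannot be told apart, and markers of several cell types moved with the galectins. Of all genes tested, 22.7% were higher in the Vehicle group. Of 12 monocyte and macrophage markers, 10 were tested and all 10 rose in the Vehicle group. The 12 summed to 19.95 to 26.97 CPM in the Sham mice, 447 to 2286 CPM in the Vehicle mice and 79.1 to 723 CPM in the LJP mice. Spp1, which encodes osteopontin, had the smallest p of that list with a log2FC of 6.51 (edgeR adjusted p = 0.000477). Of 10 microglia markers, 7 rose in the Vehicle group, led by the receptor Csf1r (1.26, edgeR adjusted p = 0.000600), and their sum was 332 to 336 CPM in the Sham mice, 451 to 1018 CPM in the Vehicle mice and 582 to 1066 CPM in the LJP mice.

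Within the LJP group, the mice with the lower microglia and macrophage sums had the lower levels of Lgals1, Lgals3 and Lgals9, while Lgals4 and Lgals8 did not divide the mice in that way. Microglia markers summed to 1053 and 1066 CPM in LJP mice 1 and 3 and to 582 and 595 CPM in LJP mice 2 and 4. Macrophage markers summed to 280 and 723 CPM in LJP mice 1 and 3 and to 79.1 and 93.8 CPM in LJP mice 2 and 4. Most of this was Spp1, which was highest in LJP mouse 3 at 644 CPM and lowest in LJP mouse 2 at 56.3 CPM. The split in the macrophage sum is therefore largely a split in 1 gene of the list. Lgals1, Lgals3 and Lgals9 were each higher in LJP mice 1 and 3 than in LJP mice 2 and 4. The split was not particular to these cell types. LJP mice 1 and 3 also had the higher sums of astrocyte markers (6270 and 5716 CPM, against 5290 and 5075 CPM). The same held for endothelial and mural markers (332 and 369 CPM, against 302 and 293 CPM). Airway and lung sums were small in all LJP mice (1.82 and 1.90 CPM, against 0.818 and 1.11 CPM). The sums of neuron markers were lower in LJP mice 1 and 3 (7359 and 7375 CPM, against 8943 and 8896 CPM).

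Vehicle mouse 1 had the lowest microglia sum and the highest neutrophil sum of its group. Its neutrophil markers summed to 148 CPM, against 0.807 to 34.6 CPM in the other Vehicle mice and at most 1.23 CPM in the Sham and LJP mice, and none of the 10 neutrophil markers passed the filter on low counts. The neutrophil gene Elane had no reads in any mouse. In Vehicle mouse 1, Lgals3 was the next highest of the Vehicle mice after mouse 2, and Lgals1 was the lowest. The part of cell numbers in the galectin values was not tested.

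Markers of the other cell types are read against all genes tested, of which 22.7% were higher and 17.3% lower in the Vehicle group. Of 8 astrocyte markers, 2 rose in the Vehicle group and 1 fell, and Gfap, the intermediate filament of astrocytes, rose by a log2FC of 3.87 (edgeR adjusted p = 1.54e-05). Of 10 endothelial and mural markers, 5 rose, with the smallest p for Kcnj8 (log2FC 1.58, edgeR adjusted p = 0.00133) and sums of 297 to 322 CPM in the Sham mice, 401 to 1558 CPM in the Vehicle mice and 293 to 369 CPM in the LJP mice. Of 8 meningeal fibroblast markers, 5 rose, led by the proteoglycan gene Dcn (log2FC 3.21, edgeR adjusted p = 0.00265). Of 8 neuron markers, 2 fell, led by the synaptic vesicle gene Syt1 (log2FC -0.60, edgeR adjusted p = 0.00428), and the sums of the 8 were 7607 to 8403 CPM in the Sham mice and 5475 to 7451 CPM in the Vehicle mice. Of 6 oligodendrocyte markers 1 rose, Mobp (log2FC 0.49, edgeR adjusted p = 0.0170), and of 3 T cell markers tested 1 fell, Cd4 (log2FC -2.54, edgeR adjusted p = 0.000150), which microglia and macrophages can also express.

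**Figure D2:**
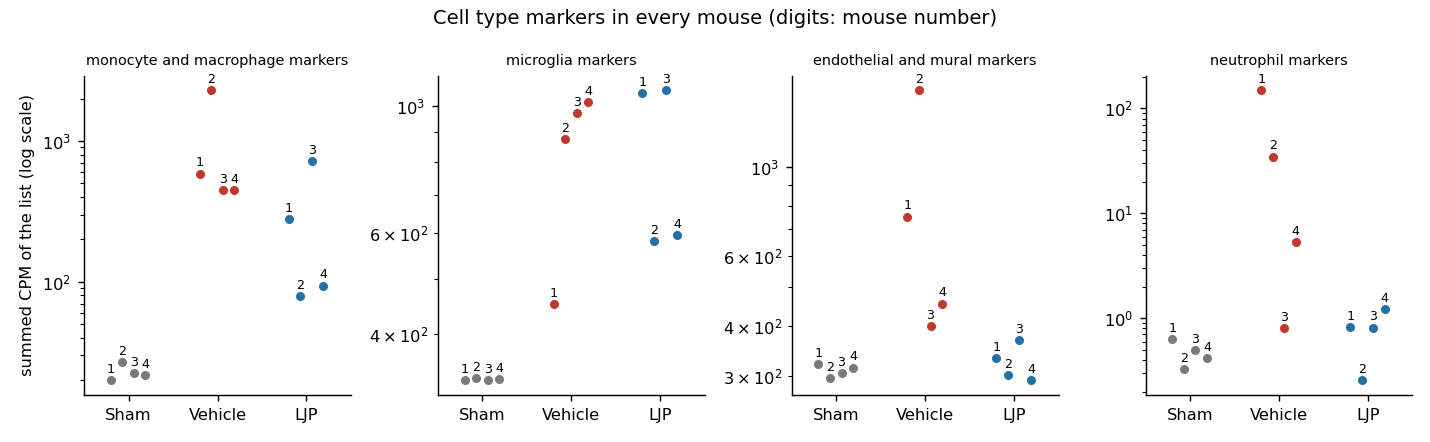
Summed CPM of 4 marker lists (vertical axes, log scale) in each Sham, Vehicle and LJP mouse, with the mouse number beside each point. Vehicle mouse 2 has the highest macrophage sum at 2286 CPM, of which 1888 CPM is Spp1. LJP mice 1 and 3 lie above LJP mice 2 and 4 for microglia and macrophages.

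Scaled to gene length, the 5 galectins summed to 18.4 ± 1.73 CPM per kb (SD, n = 4) in Sham mice, 176 ± 89.9 (SD, n = 4) in Vehicle mice and 105 ± 40.6 (SD, n = 4) in LJP mice. Lgals1 held the largest share of the length-scaled sum in each group, 48.8% in Sham, 60.8% in Vehicle and 63.1% in LJP mice on average. Lgals8 was the next in the Sham group with 31.9 ± 4.98% (SD, n = 4) and fell behind in the Vehicle group, where it held 6.52 ± 1.91% (SD, n = 4). Lgals3 went the other way, from 2.72 ± 0.969% (SD, n = 4) in Sham to 23.0 ± 6.16% (SD, n = 4) in Vehicle and 18.5 ± 3.75% (SD, n = 4) in LJP mice.

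By level per kb, the order in the Sham group was Lgals1, Lgals8, Lgals9, Lgals4 and Lgals3. The last 2 overlapped, at 0.388 to 0.617 and 0.287 to 0.811 CPM per kb, and no other neighbours did. In the Vehicle group the order of the means was Lgals1, Lgals3, Lgals9, Lgals8 and Lgals4. There the ranges of Lgals1 (54.2 to 202 CPM per kb) and Lgals3 (24.0 to 60.1) overlapped, as did those of Lgals3 and Lgals9 (10.4 to 28.6) and those of Lgals9 and Lgals8 (7.53 to 15.2). Lgals4, at 0.737 to 2.11 CPM per kb, lay below all others. The LJP group had the same order of means.

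**Figure D3:**
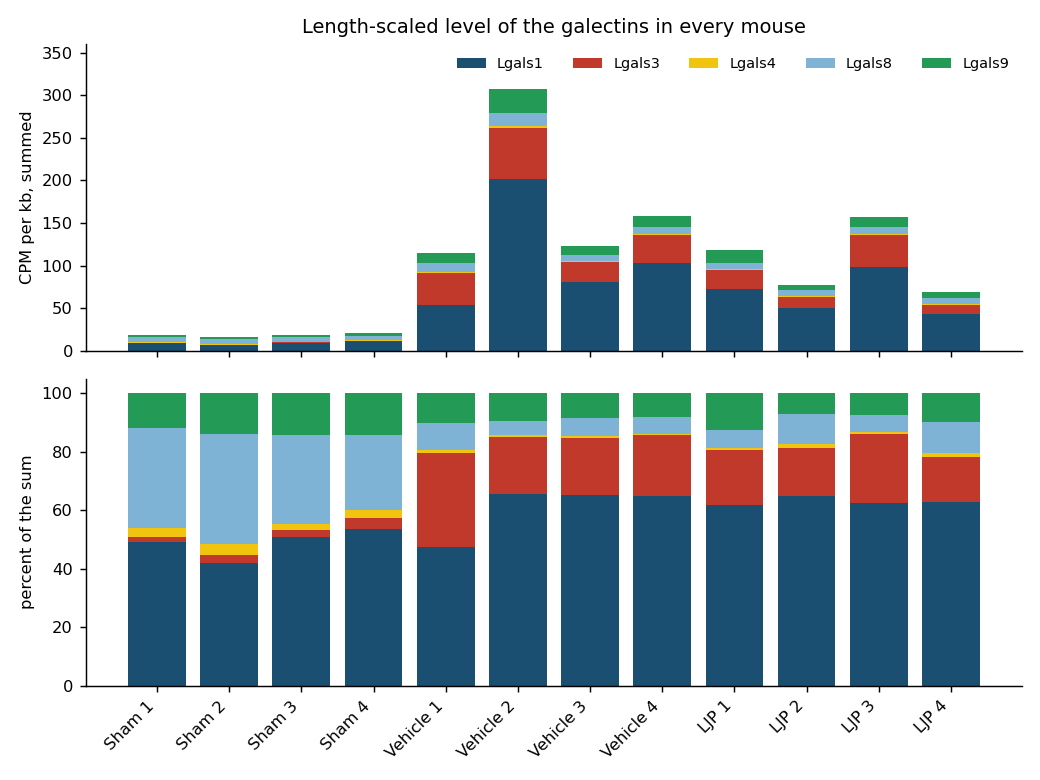
Length-scaled level of the 5 galectins in every mouse, as stacked CPM per kb (upper panel) and as percent of their sum (lower panel). The share of Lgals8 shrinks from 31.9% in the Sham mice to 6.52% in the Vehicle mice on average, and that of Lgals3 grows from 2.72% to 23.0%.

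The 5 genes did not rise by the same amount. To compare them, the log2 ratio of the counts of 2 galectins was taken within each mouse, which does not depend on the scaling of the libraries. Between Vehicle and Sham mice, 9 of the 10 ratios differed by an exact permutation test (two-sided p = 0.0286, the smallest that 4 against 4 mice allow, adjusted over the 10 pairs p = 0.0317), and none of these 9 overlapped between the groups. The mean log2 ratio of Lgals3 to Lgals1 went from -3.36 in the Sham mice to -0.61 in the Vehicle mice, a difference of 2.76 (SE 0.39), so Lgals3 rose more than the next galectin in order. Lgals1 rose more than Lgals9 by 0.91 on the log2 scale (SE 0.20), and Lgals9 rose more than Lgals4 by 1.48 (SE 0.24). For Lgals4 and Lgals8 the difference was 0.23 (SE 0.19, exact permutation p = 0.343), so their order was not resolved between Vehicle and Sham.

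**Figure D4:**
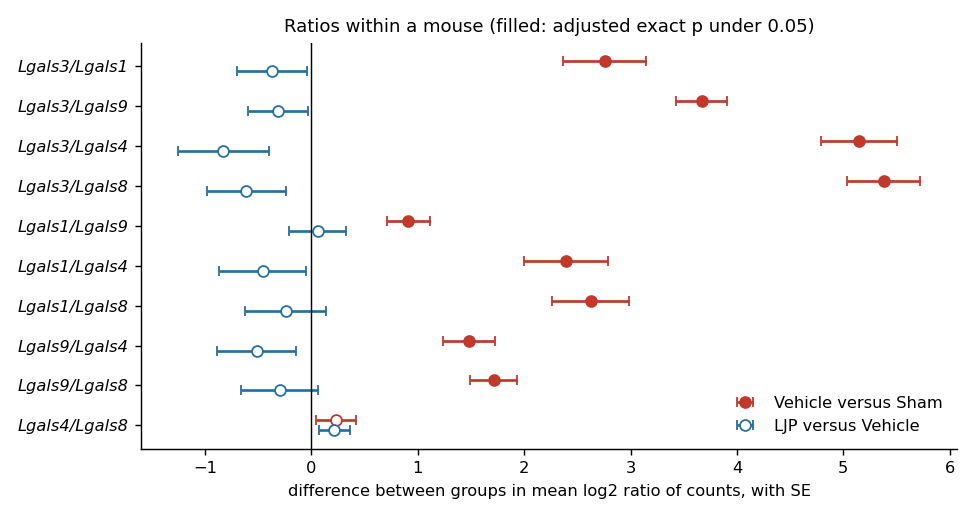
Difference between 2 groups in the mean log2 ratio of the counts of 2 galectins (horizontal axis, with the SE), for Vehicle versus Sham in red and LJP versus Vehicle in blue, 4 mice a group. Filled points passed an adjusted exact p below 0.05, which 9 of 10 pairs did for Vehicle versus Sham and 0 of 10 for LJP versus Vehicle.

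The second comparison asks whether LJP changed the galectin response to I/R. The fitted level of each of the 5 was lower with LJP than with saline, and none passed the test. Expressed as log2FC values of LJP over Vehicle, they were -0.90 for Lgals3 (SE 0.37, edgeR adjusted p = 0.132), -0.73 for Lgals1 (SE 0.35, adjusted p = 0.182), -0.71 for Lgals9 (SE 0.35, adjusted p = 0.185), -0.44 for Lgals8 (SE 0.17, adjusted p = 0.124) and -0.31 for Lgals4 (SE 0.31, adjusted p = 0.50). Of all genes tested, 0.0228% were lower at an edgeR adjusted p below 0.05. Lgals3 and Lgals8 were the 2 of the 5 whose unadjusted p was below 0.05, as it was in the lower direction for 17.4% of all genes tested, and DESeq2 called 0 of the 5 (9.36% of the genes it tested were lower and 3.81% higher). All 5 overlapped between the groups, while 5.91% of the genes tested were lower in the LJP mice without overlap. The median log2FC of the 5 was -0.71, against a value within 0.01 of 0 for all genes tested.

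The intervals show what these data leave possible. For Lgals3 the 95% interval ran from 0.307 to 0.930 of the Vehicle level, for Lgals1 from 0.356 to 1.02, for Lgals9 from 0.364 to 1.03, for Lgals8 from 0.569 to 0.956 and for Lgals4 from 0.507 to 1.28. Of the macrophage markers, edgeR called 0 of 10 between these groups (6 lower at an unadjusted p below 0.05, 6 lower by DESeq2), with a median log2FC of -1.64, and the median of the 10 microglia markers was 0.04. Of 10 endothelial and mural markers 6 were lower at an unadjusted p below 0.05 (6 by DESeq2), with a median of -0.86, and of 8 meningeal fibroblast markers 4 were lower (3 by DESeq2), with a median of -1.25. Of 8 neuron markers 3 were higher at an unadjusted p below 0.05 (2 by DESeq2), with a median of 0.30, where 12.3% of all genes tested were higher at that p. Of these 3 lists edgeR called 0 genes, while of 5 airway and lung markers tested it called 3 lower. Their part in the galectin values was not tested. These values changed with the mice included. Without Vehicle mouse 2 the log2FC was -0.60 for Lgals3, -0.26 for Lgals1, -0.26 for Lgals9, -0.22 for Lgals8 and 0.11 for Lgals4, so that of Lgals4 turned in direction. Without Vehicle mouse 3, Lgals8 passed the test (log2FC -0.56, edgeR adjusted p = 0.0255), in a fit that called 13.1% of all genes lower. Without LJP mouse 3, the log2FC of Lgals3 was -1.35 (edgeR adjusted p = 0.0729).

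Among the ratios of 2 galectins, 0 of 10 differed between LJP and Vehicle mice by the exact permutation test after adjustment over the pairs, and 0 of 10 had an unadjusted p below 0.05. The smallest adjusted p was 0.476 (exact permutation test). The largest difference was that of Lgals3 to Lgals4, at -0.83 (SE 0.43) on the log2 scale.

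The third comparison asks how far the galectins remained above the sham level in treated mice. It shares its LJP mice with the second comparison and its Sham mice with the first. Lgals3 (39.8-fold, edgeR adjusted p = 0.000285), Lgals1 (7.31-fold, adjusted p = 0.00165) and Lgals9 (3.86-fold, adjusted p = 0.00985) were higher in the LJP than in the Sham group, where 3.85% of all genes tested were higher and 0.900% lower. Lgals4 had a log2FC of 0.87 (SE 0.32, edgeR adjusted p = 0.163) and Lgals8 of 0.43 (SE 0.17, adjusted p = 0.200). The LJP values of all 5 lay above all Sham values, as they did for 12.9% of the genes tested. The calls of Lgals4 and Lgals8 changed with the mice in the fit. Without Vehicle mouse 2 both passed (edgeR adjusted p = 0.0265 and 0.0263), in a fit that called 7.77% of all genes higher. They also passed when only the LJP and Sham mice were fitted (edgeR adjusted p = 0.0149 and 0.00387), which called 12.1% higher. Of the 10 ratios within a mouse, 9 differed between LJP and Sham (exact permutation p = 0.0286, adjusted over the pairs p = 0.0317). Here Lgals4 and Lgals8 were told apart, with a difference of 0.45 (SE 0.14), while that of Lgals9 to Lgals4 was 0.97 (SE 0.40, exact permutation p = 0.0857).

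**Figure D5:**
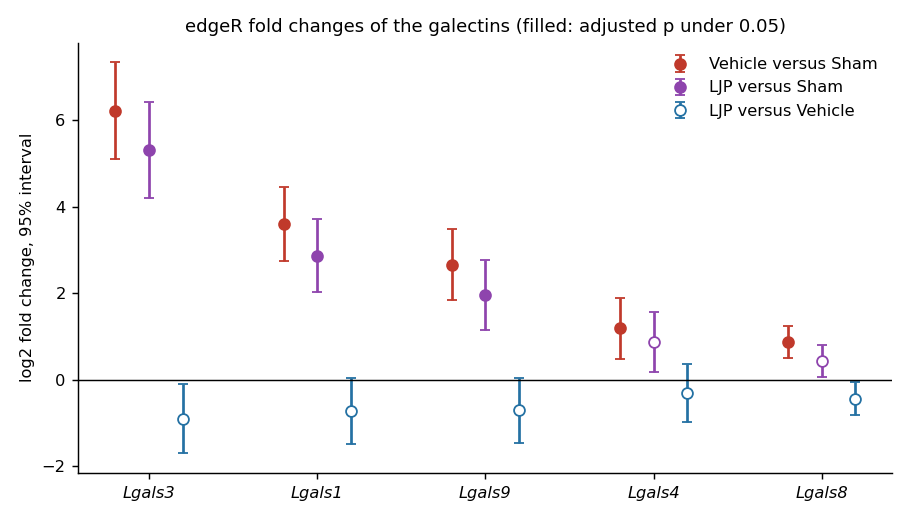
Log2FC by edgeR with its 95% interval (vertical axis) of each galectin in the 3 comparisons, 4 mice a group, with filled points for an adjusted p below 0.05. All 5 points of Vehicle versus Sham are filled, 3 of LJP versus Sham and 0 of LJP versus Vehicle.

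No other family gene in the table passed the test. Lgalsl, a galectin-related gene whose product lacks sugar binding, was at 63.8 to 67.9 CPM in the Sham mice, 50.4 to 79.9 CPM in the Vehicle mice and 55.96 to 62.76 CPM in the LJP mice. Its log2FC of Vehicle over Sham was -0.04 (SE 0.12, edgeR adjusted p = 0.793). Lgals12, known from fat tissue, had at most 22 reads in a mouse and did not pass in any comparison (edgeR adjusted p of 0.221 to 0.835). Lgals2, Lgals7 and Grifin had at most 9 reads in a mouse and were not tested, and Lgals6 was not analysed here.

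Genes that bind galectins or are bound by them were more often higher than lower after injury. Of 25 listed, 23 were tested, and 17 were higher and 1 lower, where 22.7% of all genes tested were higher and 17.3% lower. Their median log2FC was 1.51. The list was chosen with earlier results of these data known, so these counts describe it and do not test it. The part of immune cells in them was not tested. Cd44, a hyaluronan receptor and glycoprotein that galectins bind, was at 1.76 ± 0.331 CPM (SD, n = 4) in Sham mice and 49.6 ± 21.6 (SD, n = 4) in Vehicle mice, a log2FC of 4.82 (SE 0.39, edgeR adjusted p = 4.62e-05). Havcr2, which encodes TIM-3, the receptor of galectin-9, rose by 2.27 on the same scale (adjusted p = 0.000192). Alcam, an adhesion molecule bound by galectin-8, fell by 0.96 (adjusted p = 0.000216). Lgals3bp, the secreted galectin-3 binding protein, rose by 2.05 (adjusted p = 0.000442), and Trem2, a microglial receptor, rose by 2.08 (adjusted p = 0.000620); both were chosen after their values were seen.

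Without Vehicle mouse 2, 14 of the binding genes were higher and 1 lower. That fit called 18.7% of all genes higher and 15.6% lower. For this list and the lists below, the counts without Vehicle mouse 2 were added after the values were seen. That mouse was chosen because its macrophage markers stood apart. Between LJP and Vehicle, edgeR called 0 of the binding genes. At an unadjusted edgeR p below 0.05, 10 were lower and 2 higher, and DESeq2 called 9 lower and 1 higher. Of all genes tested, 17.4% were lower and 12.3% higher at an unadjusted p below 0.05, and DESeq2 called 9.36% lower and 3.81% higher. The 3 smallest p-values belonged to Cd40 (log2FC -2.63), Pdpn (-1.59) and Itga5 (-2.13), each with an edgeR adjusted p of 0.0678. Between LJP and Sham, where 3.85% of all genes were higher and 0.900% lower, 7 were higher and 1 lower, and 12 were higher and 2 lower without Vehicle mouse 2, where the shares of all genes were 7.77% and 5.50%.

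Some enzymes that build and cap the sugars galectins bind were higher after injury and others lower. Of 25 genes of N-glycan branching and galactosylation, 10 were higher and 5 lower in the Vehicle group, against 22.7% and 17.3% of all genes, and the median log2FC was 0.16. B4galt1, a galactosyltransferase that adds the galactose, rose by 2.75 on the log2 scale (edgeR adjusted p = 0.000443). Gcnt1, which branches O-linked sugars, rose by 2.24 (adjusted p = 0.000213), while B3gnt2, which extends the poly-N-acetyllactosamine chains that galectins favour, fell by 0.83 (adjusted p = 0.000146). Without Vehicle mouse 2 the counts were 9 higher and 5 lower (18.7% and 15.6% of all genes). Between LJP and Vehicle edgeR called 0, while 9 were lower and 2 higher at an unadjusted p below 0.05 and DESeq2 called 7 lower and 0 higher. Over all genes these shares were 17.4% and 12.3% at the unadjusted p and 9.36% and 3.81% by DESeq2. The smallest p-values were those of B3gnt3 (log2FC -2.61) and B4galt1 (-1.43), both at an edgeR adjusted p of 0.0678, and of the sialyltransferase St3gal1 (-0.64, adjusted p = 0.0709). Between LJP and Sham 1 was higher and 1 lower, against 3.85% and 0.900% of all genes, and without Vehicle mouse 2 these counts were 3 and 3, against 7.77% and 5.50% of all genes.

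Of 25 genes that act where galectins mark damaged endosomes and lysosomes, 10 were higher and 6 lower after injury, against 22.7% and 17.3% of all genes. The median log2FC was 0.01, and without Vehicle mouse 2 there were 7 higher and 7 lower (18.7% and 15.6% of all genes). Trim16, a ubiquitin ligase that works with galectin-3, rose by 2.17 on the log2 scale (edgeR adjusted p = 0.00365). Tfeb, the main transcription factor of lysosome genes, rose by 1.02 (adjusted p = 0.00124), and Chmp3, a subunit of the ESCRT-III membrane repair complex, fell by 0.36 (adjusted p = 0.00180). Between LJP and Vehicle edgeR called 0, while 8 were lower and 1 higher at an unadjusted p below 0.05 and DESeq2 called 3 lower and 0 higher, against 17.4% and 12.3% of all genes at the unadjusted p and 9.36% and 3.81% by DESeq2. Tfeb had a log2FC of -0.77, Trim16 of -1.69 (both edgeR adjusted p = 0.0678) and Chmp4b of -0.27 (adjusted p = 0.0862). Between LJP and Sham 0 were higher and 1 lower, against 3.85% and 0.900% of all genes, and without Vehicle mouse 2 there were 0 and 2 (7.77% and 5.50% of all genes).

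The genes whose pattern was most like that of each galectin were found over the 12 mice. Likeness was measured as the root mean square difference in log2 CPM, after each gene was centred on its Sham mean, and a smaller value means a closer pattern. It is a description, since all values come from the same 12 libraries. Closest to Lgals8 were Ttc28 (0.102), Acot9 (0.103) and the Wnt receptor Fzd7 (0.107), and closest to Lgals4 were Arhgef1 (0.205), Tifa (0.214) and Col6a1 (0.215). Closest to Lgals9 were the immunoproteasome subunit Psmb8 (0.225), the complement gene C1qb (0.235) and Casp8 (0.253). Closest to Lgals1 were Apobec1 (0.236), the mitotic kinase Aurkb (0.260) and the chromatin assembly factor Chaf1b (0.306). The nearest to Lgals3 were the leukocyte receptor Lilrb4a (0.464), the protease inhibitor Serpina3n (0.721) and Spp1 (0.811). The measure grows with the size of a change and with counting noise, so it is not comparable between galectins, and the nearest genes of Lgals4, Lgals8 and Lgals9 changed when single mice were left out.

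The promoters of Lgals3 and Lgals9 are shown because these genes had the largest rises among the galectins with a promoter entry. RefSeq's promoter table (GRCm38.p6) held 4 of the 5 galectins, not Lgals1. The windows of Lgals3 and Lgals9 end at the gene start given above, while those of Lgals4 and Lgals8 lie inside the gene, before a start other than its outermost one. The 250 bases before the start that the table uses were searched on both strands for the AP-1 motif TGANTCA, the interferon response motif (TTTC, any 2 bases, TTTC), the PU.1 core GAGGAAG, the Sp1 motif GGGCGG, the STAT motif TTCNNNGAA and the TATA motif TATAAA, and no match overlapped another. Capitals mark the matches.
Lgals3, chr14:47373610-47373859, plus strand: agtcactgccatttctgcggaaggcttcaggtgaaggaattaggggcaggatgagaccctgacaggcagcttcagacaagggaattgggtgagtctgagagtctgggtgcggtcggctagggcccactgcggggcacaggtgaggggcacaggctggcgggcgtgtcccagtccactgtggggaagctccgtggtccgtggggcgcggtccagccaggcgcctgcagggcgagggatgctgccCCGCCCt
Lgals9, chr11:78984925-78985174, minus strand: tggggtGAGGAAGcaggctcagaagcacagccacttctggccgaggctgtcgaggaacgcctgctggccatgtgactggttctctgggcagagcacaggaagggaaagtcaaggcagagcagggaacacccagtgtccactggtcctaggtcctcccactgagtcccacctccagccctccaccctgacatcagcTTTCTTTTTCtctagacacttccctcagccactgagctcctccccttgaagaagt

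Lgals3 held the Sp1 motif, as did 32.74% of the 32851 promoters of this length. Lgals9 held the interferon response motif, found in 2.98% of promoters, and the PU.1 core, found in 10.61%. The PU.1 core was also in the window inside Lgals4, and the window inside Lgals8 held none of the 6. AP-1, STAT and TATA motifs, present in 6.75%, 7.02% and 12.37% of promoters, were in none of the 4 windows. A match is a string of letters in the window and was not tested for binding.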

How the data were processed

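Poly(A) RNA from brain hemispheres of 12 mice (4 sham-operated, 8 after ischemia) was sequenced as paired-end reads, and the authors deposited raw counts per gene and mouse, without normalization. The submitters' processing notes name featureCounts, DESeq2 and the builds GRCm39 and mm10, without their roles. The aligner and strand setting are not given in the sources used here. Gene positions in the deposited table equal those of RefSeq GRCm38.p6 for 39754 of 39756 genes, and that build is used.

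The counts were tested with edgeR 4.0.16 in R 4.3.3 (filterByExpr, TMM, quasi-likelihood F test, a coefficient per group, all 12 mice, Benjamini-Hochberg over 17558 genes, call at an adjusted p below 0.05). Total counts of 17960353 to 22216315 set a floor of 3 counts at 0.129 to 0.173 CPM; this floor covers counting error only. The standard error is the log2 fold change divided by the root of F. The code was tested on simulated data, in which 2-fold changes were recovered less often than 4-fold changes, so a missed call is weak evidence for small differences. Ratios used log2 of counts plus 0.5 and exact two-sided permutation tests (scipy 1.17.1). Likeness used a prior count of 2. Sequences came from GENCODE M21 transcripts and RefSeq promoters. Alternatives were DESeq2 1.42.0, RLE, library size only, no filter, 2 groups only, a replicate block, the thresholds in the study's methods and each mouse left out.

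Named are the 5 galectins, the other family genes, the 3 genes with the smallest p per context list in the first 2 comparisons, for Vehicle versus Sham the gene with the smallest p in the marker lists of brain, T and gut cells, and the 3 genes closest to each galectin. Lgals3bp, Trem2, Krt20, Cdx1, Cdx2 and Elane were named after their values were seen. The members and lists were chosen with earlier results of these data known, and some lists include genes that other cell types also express. No 2 libraries of a group agreed within sampling noise. The labels put all 12 mice in Batch1.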

Additional observations from a re-analysis of the deposited data

Results flagged for a closer look

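In groups of 4 mice, a value was marked when the highest or lowest mouse lay so far from its nearest neighbour that the gap, divided by the range of the group, exceeded Dixon's 95% critical value. Of 171 groups compared (57 genes in 3 groups), 17 were marked, and chance marks about 1 in 20, which is 8.55 groups.

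Among the galectins, Vehicle mouse 2 was marked as high for Lgals9 (0.865), and Vehicle mouse 3 as low for Lgals2 (0.895). The Lgals2 mark rests on 3 reads, the floor used here, against 7 to 9 reads in the other Vehicle mice. Vehicle mouse 2 was also marked as high for Spp1 (0.954), for the fibroblast gene Dcn (0.841) and for Chaf1b (0.891). Sham mouse 1 was marked as low for Havcr2 (0.889), Gfap (0.905) and Mbp (0.902) and as high for Chaf1b (0.926). LJP mouse 3 was marked as high for Chil3 (0.934), Kcnj13 (0.949), Aqp1 (0.927) and Serpina3n (0.855). The remaining marks were Sham mouse 4 as low for B3gnt3 (0.839), Sham mouse 2 as low for Trim16 (0.885), LJP mouse 1 as high for St3gal1 (0.945) and Vehicle mouse 1 as low for Csf1r (0.880).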

How the results depend on the processing

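The 5 calls of Vehicle over Sham kept their direction and passed under all 6 other fits and in all 12 fits without a mouse. The count of genes called there was 7014, 3807 at the thresholds in the study's methods. Between LJP and Vehicle, 4 genes were called, 2307 by DESeq2, 593 without a filter, 2 with the replicate block, 2 with only the 2 groups compared, 1223 at the thresholds in the study's methods and 3 to 3857 without a mouse (3857 without Vehicle mouse 3, 2095 without Vehicle mouse 4). The log2 fold changes of LJP over Vehicle ranged, without a mouse, from -0.48 to 0.11 for Lgals4, which reversed to 0.11 without Vehicle mouse 2, and from -0.56 to -0.22 for Lgals8. Between LJP and Sham, 834 genes were called, 1454 by DESeq2, 464 with the replicate block, 4043 with only the 2 groups compared and 393 to 2357 without a mouse (2357 without Vehicle mouse 2). There Lgals4 was 0.87 and Lgals8 0.43 with only the 2 groups compared, and both passed. Without a mouse they ranged from 0.75 to 0.95 and from 0.37 to 0.47. The cause of these changes was not tested. Same-numbered mice correlated at -0.32 to 0.11, so the numbers do not pair them, and the replicate block changed no galectin call. Of the 3 genes nearest to Lgals4, 1 was kept at a prior count of 0.5. Without a mouse, which was tried after seeing the data, 0 to 3 of the nearest genes of Lgals8 and Lgals9 were kept (0 for both without Vehicle mouse 2), 1 to 3 for Lgals4 and 2 to 3 for Lgals1 and Lgals3, so these names change with single mice. Lgals1, Lgals3, Lgals4, Lgals8 and Lgals9 passed the filter, so the planned test for genes with too few counts was not run. Depth limits Lgals3 and Lgals4 in the Sham mice, at 7 to 24 reads.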
